A study of Mus musculus with 16 samples.

Results

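The T cell receptor β chain (TCR-β) repertoire of T cells from subcutaneous KPC-Luc tumors was compared between mice given the vasoactive intestinal peptide receptor (VIP-R) antagonist ANT008 without a checkpoint antibody and control mice. The comparison used the 4 ANT008 and the 4 control samples of the 16 in the series, chosen by their titles. They held 49456 of the 126344 in-frame rearrangements and 230551 of the 526888 in-frame templates. KPC-Luc is a luciferase-expressing mouse line of pancreatic ductal adenocarcinoma (PDAC). The hosts were C57BL/6 mice, 8 to 10 weeks old and taken to be female. The study names female mice for its flow cytometry of such tumors, whereas its text on receptor sequencing states no sex. Mice were assigned to treatment at random 6 to 7 days after implantation and were treated for 10 days, and tumors were taken on day 21. ANT008 mice received 10 µg of the antagonist under the skin each day, and 200 µg of isotype IgG into the abdomen once every 3 days. Control mice received a scrambled peptide and the same IgG on the same schedule, so both groups carried the tumor, a daily peptide and an antibody that does not bind PD-1. The 8 other samples, scrambled peptide with anti-PD-1 and ANT008 with anti-PD-1 (combination), entered the shared fits and are given where they bear on a result. The question was whether VIP-R blockade alone changes which T cell clones make up the infiltrate.

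Each T cell builds its TCR-β gene by joining 1 V, 1 D and 1 J segment. At each joint the ends are trimmed by a nuclease and bases without a template, the N nucleotides, are added by terminal transferase. The joint is the third complementarity-determining region (CDR3), which contacts the antigen peptide, while the V segment encodes the loops that mainly touch the MHC molecule. All descendants of a T cell carry the same rearrangement, so a clone that divides in the tumor raises the share of its own V gene, J gene, CDR3 length and trimming. VIP acts on T cells through the receptors VPAC1 and VPAC2, which dampen activation. In the immunoSEQ assay a clone is 1 unique in-frame rearrangement of 87 nucleotides, and its size is its template count, the service's estimate of starting molecules. More cells of a clone and more receptor molecules per cell cannot be told apart.

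The largest clone of each sample is shown first because a clone of this size can set the share of its V gene, J gene and trimming class in a mouse. Each line runs 5′ to 3′ from the conserved cysteine codon at the start of the CDR3 to the end of the read, which stops 1 codon before the CDR3 does. Capitals mark the bases between the V and the J segment, made of N nucleotides and what is left of the D segment.
control replicate 1, Trbv14/Trbj2-7: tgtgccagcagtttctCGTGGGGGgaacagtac
control replicate 2, Trbv1/Trbj2-2: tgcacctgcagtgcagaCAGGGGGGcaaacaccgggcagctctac
control replicate 3, Trbv5/Trbj2-1: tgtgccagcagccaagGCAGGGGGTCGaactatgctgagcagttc
control replicate 4, Trbv13-2/Trbj1-2: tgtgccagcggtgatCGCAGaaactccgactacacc
ANT008 replicate 1, Trbv3/Trbj1-5: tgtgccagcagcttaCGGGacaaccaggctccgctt
ANT008 replicate 2, Trbv1/Trbj2-2: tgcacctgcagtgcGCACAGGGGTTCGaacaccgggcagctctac
ANT008 replicate 3, Trbv13-1/Trbj2-1: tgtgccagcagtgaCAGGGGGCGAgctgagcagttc
ANT008 replicate 4, Trbv14/Trbj2-1: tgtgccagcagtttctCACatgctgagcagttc

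These 8 clones used 6 V genes, and no rearrangement was the largest in more than 1 mouse. The largest clones of control replicate 2 and ANT008 replicate 2 joined the same segments, Trbv1 and Trbj2-2, to a CDR3 of 48 nucleotides. They differed in the V end. The control clone kept 17 V bases with 0 trimmed and had 1 inserted nucleotide, and the ANT008 clone kept 14 V bases with 3 trimmed and had 6 inserted. The former made up 18.2% of in-frame templates in its sample (95% Wilson interval 17.8 to 18.6%) and the latter 8.82% (8.52 to 9.13%). These intervals cover counting error only. The largest ANT008 replicate 1 clone was found in 7 of the other 15 samples by nucleotides and in 11 by CDR3 residues, whereas the largest control replicate 3 clone was found in no other sample.

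In-frame templates were 26005, 41224, 38116 and 37285 in control replicates 1 to 4. They were 22679, 32935, 11537 and 20770 in ANT008 replicates 1 to 4, so that ANT008 samples were on the whole shallower. With every sample drawn down to 7180 templates, the Trbv24 log2 fold change described next was 2.71 (edgeR adjusted p = 0.046). That value is from a single random draw, and its spread over draws was not examined. The V trimming difference described further on, averaged over 20 draws, was 0.541 nucleotides (exact permutation, adjusted p = 0.0324). Between 2745 and 10877 unique in-frame rearrangements were found per sample. V genes left unnamed by the service made up at most 0.0433% of in-frame templates in these samples. The T cell label could be checked by in-frame receptors alone, since no gene expression is in these data. The labels give a T cell purity of 80 to 85% after isolation, in a protocol that also names an expression panel, and the study's account of receptor sequencing states no purity.

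Among V genes, Trbv24 rose with ANT008 and no other V gene passed the test. Trbv24, a V segment that RefSeq places between Trbv23 and Trbv25 in the TCR-β locus, took up 0.946%, 0.657%, 0.79% and 0.397% of in-frame templates in the 4 control samples. In ANT008 replicates 1 to 4 it took up 0.776%, 1.44%, 8.29% and 8.18%. ANT008 replicates 3 and 4 were about an order of magnitude above every control sample, ANT008 replicate 2 was a little above them, and ANT008 replicate 1 lay within their range. The mean was 0.697% ± 0.233 (SD, n = 4) in control and 4.67% ± 4.12 in ANT008. The fitted log2 fold change was 2.74 (SE 0.73), with an adjusted p of 0.0257 by edgeR's quasi-likelihood test over the 26 V genes tested. That was 1 V gene of 26, or 3.85% of those tested, and 2 had an unadjusted p under 0.05. The call rested on single samples. The log2 fold change fell short of the threshold by edgeR at 2.31 without ANT008 replicate 3 (adjusted p = 0.129), and at 2.32 without ANT008 replicate 4 (adjusted p = 0.17). Leaving out control replicate 1, 2, 3 or 4 also ended the call by edgeR, with adjusted p of 0.0563, 0.0969, 0.0587 and 0.17. TMM scaling ended it too (log2 fold change 2.58, edgeR adjusted p = 0.0624). The call was kept by edgeR with the 8 samples alone (adjusted p = 0.000118) and with no filter on low counts (adjusted p = 0.000975). DESeq2 kept it as well (adjusted p = 0.00186).

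**Figure D1:**
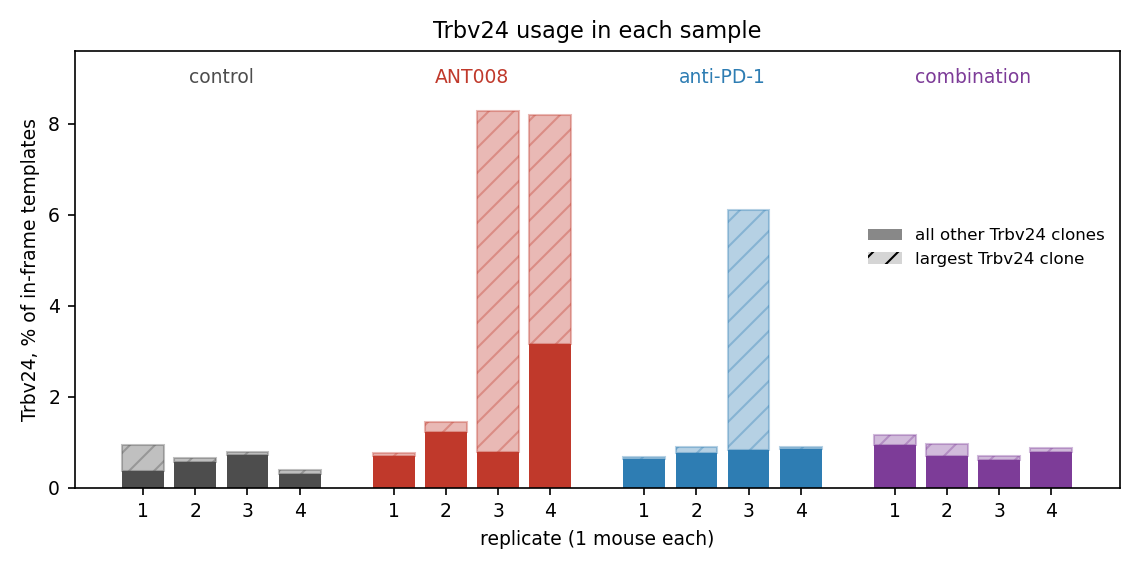
Percent of in-frame templates with Trbv24 in each of the 16 samples, by group and replicate. The hatched part of each bar is the largest Trbv24 clone of the sample and the filled part is all other Trbv24 clones. In ANT008 replicates 3 and 4 the bars reach 8.29% and 8.18%, and most of each is 1 clone.

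The Trbv24 templates of the high samples belonged to few clones, shown here because they carry the call.
ANT008 replicate 3, Trbv24/Trbj2-5: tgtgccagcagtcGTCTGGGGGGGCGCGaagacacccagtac
ANT008 replicate 4, Trbv24/Trbj2-3: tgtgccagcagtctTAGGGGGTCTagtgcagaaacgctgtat
ANT008 replicate 4, Trbv24/Trbj2-1: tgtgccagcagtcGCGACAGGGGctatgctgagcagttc
control replicate 1, Trbv24/Trbj2-1: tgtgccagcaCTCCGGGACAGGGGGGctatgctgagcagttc

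The Trbv24/Trbj2-5 clone of ANT008 replicate 3 had 864 templates, which was 7.49% of the sample (95% Wilson interval 7.02 to 7.98%) and 90.4% of its Trbv24 templates. The Trbv24/Trbj2-3 clone of ANT008 replicate 4 had 1044 templates, or 5.03% of the sample (4.74 to 5.33%) and 61.4% of its Trbv24 templates. A further clone of that sample, Trbv24/Trbj2-1 with 416 templates, held 24.5% and was added after its values were seen. The Trbv24/Trbj2-5 clone of ANT008 replicate 3 was found in 1 of the other 15 samples by nucleotides and in 1 by CDR3 residues. The Trbj2-3 and Trbj2-1 clones of ANT008 replicate 4 were found in none by nucleotides, and in 3 and 2 by residues. These 3 clones had different J segments, and the bases in capitals differ between all of them. In control replicate 1 the largest Trbv24 clone also held most of that V gene, 61% of its Trbv24 templates, but with 150 templates it was 0.577% of the sample. In the 5 remaining samples the largest Trbv24 clone held between 9.63% and 24.3% of the Trbv24 templates.

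Counted once per rearrangement, Trbv24 made up 1.5%, 1.55%, 1.49% and 1.72% of the in-frame rearrangements of control replicates 1 to 4. The corresponding values were 1.89%, 1.8%, 1.71% and 1.84% in ANT008 replicates 1 to 4. The ANT008 values were all close to or above the highest control value, and the groups overlapped by 1 sample each. The log2 fold change on this scale was 0.23 (SE 0.09), with an edgeR adjusted p of 0.26. Without all rearrangements above 1% of their sample the template-based log2 fold change was 0.33 (SE 0.33, adjusted p = 0.557).

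The fitted effect of ANT008 on Trbv24 was different where anti-PD-1 was given. Trbv24 took up 0.677%, 0.889%, 6.1% and 0.905% in anti-PD-1 replicates 1 to 4, with a mean of 2.14%. In combination replicates 1 to 4 it took up 1.16%, 0.97%, 0.707% and 0.865%, with a mean of 0.926%. Apart from anti-PD-1 replicate 3, these 2 groups overlapped. The combination minus anti-PD-1 log2 difference was -1.22 (SE 0.69, edgeR adjusted p = 0.398). The difference between this effect and the effect of ANT008 alone was -3.96 on the log2 scale (SE 1.00, adjusted p = 0.0161), the only one of 26 V genes past the threshold. In anti-PD-1 replicate 3, 1 clone held 86.5% of the Trbv24 templates. The difference of effects was not refitted without single samples or without large clones.

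**Figure D2:**
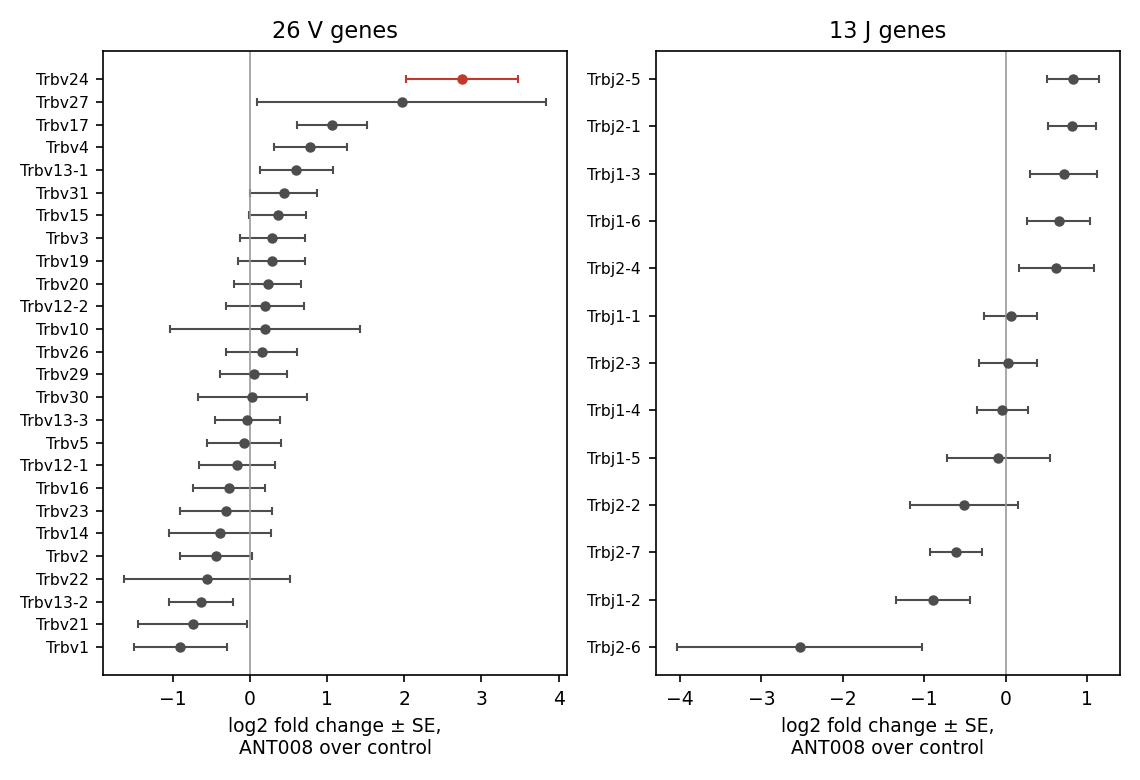
Log2 fold change of ANT008 over control for the 26 V genes and the 13 J genes tested, with the standard error of the edgeR fit. Trbv24, in red, is the gene with an adjusted p under 0.05, and no J gene reached it.

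The 7 V genes next in order of p did not pass. Trbv17 took up 1.13%, 0.917%, 1.01% and 0.349% of control templates. Its ANT008 values were 1.52%, 1.73%, 1.08% and 2.8%, above every control value in 3 of 4 mice. Its fitted log2 fold change was 1.07 ± 0.45 (SE), with an edgeR adjusted p of 0.36. Trbv4 averaged 2.66% in control and 4.58% in ANT008 with a log2 fold change of 0.78 (SE 0.48), and Trbv13-1 averaged 5.14% and 7.81% with 0.60 (SE 0.47). The Trbv13-1 mean was set by ANT008 replicate 3 at 16.6%, where the clone printed above held 83.1% of that V gene. Without that sample the Trbv13-1 log2 fold change turned to -0.07.

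Trbv1 and Trbv13-2 had log2 fold changes below 0. Trbv1 took up 5.19%, 22.5%, 5.48% and 3.23% of control templates. In ANT008 it took up 2.37%, 12.5%, 1.96% and 2.6%, so that 3 of 4 ANT008 samples were below every control sample and 1 was above all but control replicate 2. Its fitted log2 fold change was -0.90 ± 0.61 (SE), with an edgeR adjusted p of 0.786. It moved to -1.98 without ANT008 replicate 2 (adjusted p = 0.0316), and to 0.07 without control replicate 2. Trbv13-2 averaged 8.99% ± 5.52 in control and 5.79% ± 1.64 in ANT008, with a log2 fold change of -0.64 (SE 0.41) and the highest value, 17.1%, in control replicate 4. Trbv21 had a log2 fold change of -0.74 (SE 0.71) at means of 0.115% and 0.0686%. Trbv27, a pseudogene in RefSeq, was at or near 0 in all 8 samples, the highest value being 0.0173%.

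The V gene lists had summed shares that overlapped between groups, and none of their members was called. The 5 V genes of invariant natural killer T cell receptors (Trbv1, Trbv13-1, Trbv13-2, Trbv13-3 and Trbv29), 2 with a log2 fold change above 0 and 3 below, summed to 35.5% ± 12.5 of control and 30.6% ± 8.94 of ANT008 templates, with a median log2 fold change of -0.04 beside 0.10 over all 26 V genes. The 3 V genes of mucosal-associated invariant T cell receptors (Trbv13-2, Trbv13-3 and Trbv19) summed to 24.3% ± 6.98 and 22.4% ± 4.05. The Trbv13 family summed to 22.4% ± 7.64 and 21.6% ± 6.34, and the Trbv12 family to 6.72% ± 5.1 and 6.65% ± 1.98. Trbv31, which lies beyond the constant genes in inverted orientation, took up 1.02% ± 0.38 and 1.38% ± 0.451. For each of these lists the difference between the means was smaller than the larger of both SDs.

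No J gene passed the test, 0 of 13 (0% of those tested), and 2 had an unadjusted p under 0.05. Both belong to the Trbj2 cluster, which lies next to the second D segment. Trbj2-1 took up 10.5%, 11.5%, 15.2% and 8.16% of control templates. It took up 18.8%, 15.2%, 27.3% and 18.7% of ANT008 templates, so that 3 of 4 ANT008 samples were above all controls and ANT008 replicate 2 was just under control replicate 3. The fitted log2 fold change was 0.82 ± 0.30 (SE), with an edgeR adjusted p of 0.123.

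Trbj2-5 showed a similar size of difference. Its control values were 5.47%, 8.82%, 6.93% and 4.34%, and its ANT008 values were 7.55%, 13.8%, 12.4% and 11.5%. The fitted log2 fold change was 0.82 ± 0.32 (SE), with an edgeR adjusted p of 0.123. Without rearrangements above 1% the log2 fold change was 0.0043 for Trbj2-1 and 0.15 for Trbj2-5. The remaining J genes named by p were lower on average. Trbj1-2 was -0.89 (SE 0.45) on the log2 scale, with 17.6% in control replicate 4 against 2.48% to 4.64% in the other 7 samples. It turned to 0.04 without control replicate 4. Trbj2-7, the commonest J gene of control, averaged 34.4% ± 14.7 in control and 22.5% ± 5.28 in ANT008, a log2 fold change of -0.61 (SE 0.32).

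The whole clusters did not differ beyond their spread. The 6 Trbj1 genes summed to 28.2% ± 6.17 of control and 27.1% ± 1.66 of ANT008 templates, and the 7 Trbj2 genes to 71.7% ± 6.09 and 72.8% ± 1.65. Of the Trbj2 genes, 4 had a log2 fold change above 0 and 3 below. The median was 0.03, the same as over all 13 J genes.

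Of 246 V-J pairs tested, 2 rose with ANT008, which is 0.813% of those tested, and none fell. Both paired Trbv24, with Trbj2-5 and with Trbj2-3. Trbv24/Trbj2-5 had 4, 14, 32 and 7 templates in control replicates 1 to 4. In ANT008 replicates 1 to 4 it had 14, 93, 873 and 16, so ANT008 replicate 3 stood far above all other samples. As shares, ANT008 replicate 3 held 7.57% and the other ANT008 samples 0.0617% to 0.282%, against 0.0154% to 0.084% in control. The fitted log2 fold change was 5.69 ± 1.30 (SE), with an edgeR adjusted p of 0.0471.

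Trbv24/Trbj2-3 had 3, 17, 32 and 9 templates in control and 10, 67, 7 and 1056 in ANT008 replicates 1 to 4. Here ANT008 replicate 4 stood apart, with 5.08% of its templates. The fitted log2 fold change was 5.04 ± 1.20 (SE), with an edgeR adjusted p of 0.0471. The clone printed above for each of these samples held 99% of the pair's templates in ANT008 replicate 3 and 98.9% in ANT008 replicate 4. In ANT008 replicate 2 a different Trbv24/Trbj2-5 clone of 73 templates, 0.222% of the sample, held 78.5% of that pair. Without the sample that held its leading clone, Trbv24/Trbj2-5 was 1.87 (edgeR adjusted p = 0.234) and Trbv24/Trbj2-3 was 1.36 (adjusted p = 0.448). Each control left out ended both calls, with edgeR adjusted p of 0.11, 0.111, 0.0898 and 0.264 without control replicates 1, 2, 3 and 4. DESeq2 gave no p for 22 of the 246 pairs, both of these among them. It called 15 others of the 246, 6 higher and 9 lower. Neither pair's difference from the effect under anti-PD-1 passed (adjusted p = 0.163 and 0.242).

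The 4 pairs next in order of p had higher values in ANT008 but did not pass by edgeR (adjusted p = 0.115 each). All 4 are among the 6 pairs that DESeq2 called higher, beside 9 pairs that it called lower. Its adjusted p was 0.0274 for Trbv19/Trbj1-3, 0.0311 for Trbv19/Trbj2-4, 0.0039 for Trbv5/Trbj1-1 and 0.0243 for Trbv29/Trbj1-3. In 3 of these 4 pairs the groups did not overlap. Of the 246 pairs, 7, or 2.85%, did not overlap between groups, 6 of them higher in ANT008. Trbv5/Trbj1-1 took up 0.134% to 0.289% of control and 0.419% to 0.938% of ANT008 templates. Its log2 fold change was 1.72 (SE 0.54). This pair had 19 to 71 unique rearrangements in the ANT008 samples and 26 to 68 in control. With each rearrangement counted once its log2 fold change was 0.08 (SE 0.21, edgeR adjusted p = 0.977). Without rearrangements above 1% it was 1.52 (SE 0.42, edgeR adjusted p = 0.163). Trbv19/Trbj1-3 took up 0.107% to 0.205% and 0.216% to 2.21%, with a log2 fold change of 2.85 (SE 0.82). Trbv19/Trbj2-4 took up 0.0966% to 0.155% and 0.173% to 1.46%, with 2.42 (SE 0.73). Trbv29/Trbj1-3 averaged 0.0623% and 0.426%, with 2.76 (SE 0.87). These values stand beside a median of 0.35 over all 246 pairs.

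CDR3 length did not shift as a whole. The commonest length, 42 nucleotides or 14 codons, took up 27.9%, 20.9%, 33.3% and 29.2% of control and 23.4%, 26.2%, 29% and 32.3% of ANT008 templates. Its log2 fold change was -0.01 (SE 0.20). Of 15 length classes, 0 passed the test (0% of those tested) by edgeR, and 2 had an unadjusted p under 0.05. Both are described here after their values were seen. The 33-nucleotide class, of 11 codons, took up 1.5%, 1.67%, 1.97% and 1.38% of control templates. Its ANT008 values were 2.91%, 2.82%, 3.06% and 4.09%, each above the highest control value, and it was the only 1 of 15 classes (6.67%) without overlap. The fitted log2 fold change was 0.98 ± 0.35 (SE), with an edgeR adjusted p of 0.158. It was 0.79 (SE 0.21, adjusted p = 0.00692) without rearrangements above 1%, the one setting in which a length was called. The 30-nucleotide class averaged 0.376% in control and 0.785% in ANT008, a log2 fold change of 1.06 (SE 0.49, adjusted p = 0.326).

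Trimming of the V segment was greater in ANT008 samples. The service reports how many nucleotides were lost from the 3′ end of the V gene in each rearrangement. Weighted by templates, the mean was 1.76, 1.91, 2.02 and 1.95 nucleotides in control replicates 1 to 4. It was 2.15, 2.72, 2.72 and 2.21 in ANT008 replicates 1 to 4, so that all 4 ANT008 samples lay above all 4 controls. The means were 1.91 ± 0.112 and 2.45 ± 0.311 (SD, n = 4), a difference of 0.542 nucleotides (SE 0.123). Dunnett's comparison with control, run as an exact two-sided permutation, gave p = 0.00362, and 0.0362 after adjustment over the 10 junction measures. It was the only one of these 10 to pass. An exact permutation test on control and ANT008 alone gave p = 0.0286, the smallest that 4 against 4 samples allow, and 0.286 after adjustment. Without ANT008 replicate 2 or 3, or any 1 of the 4 controls, the exact adjusted p lay between 0.0533 and 0.115, with differences of 0.452 to 0.579 nucleotides.

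**Figure D3:**
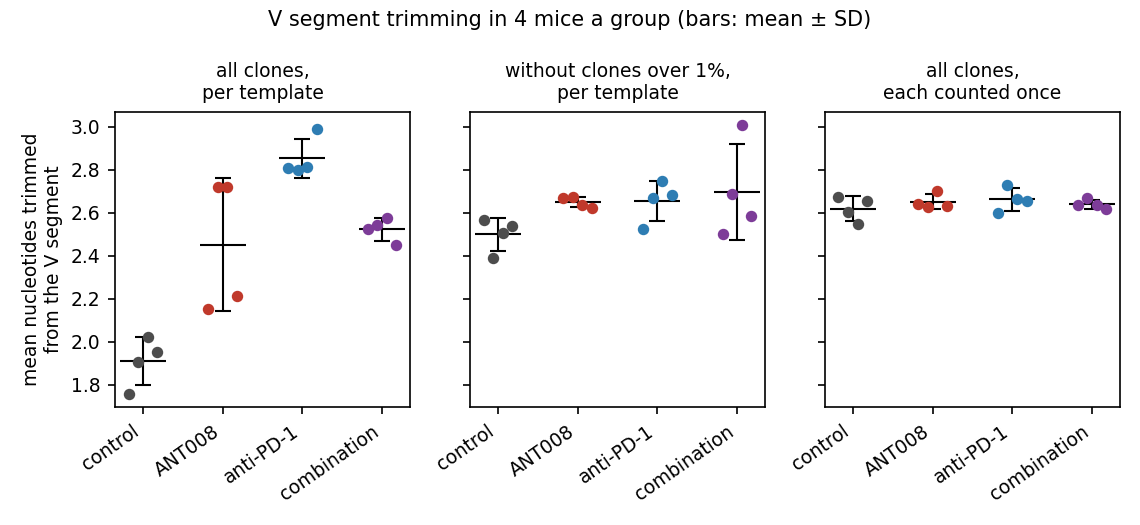
Mean number of nucleotides trimmed from the V segment in each sample of the 4 groups, over all in-frame templates, without clones above 1% of their sample, and with each rearrangement counted once. Points are samples and bars are mean ± SD. On the left all 4 ANT008 samples lie above the 4 controls, and on the right the groups overlap.

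The distribution differed at its low end. Templates with 0 or 1 trimmed V nucleotide made up 54.7%, 50.9%, 57.1% and 54.3% of control samples. In ANT008 replicates 1 to 4 they made up 47.5%, 33.1%, 23.5% and 45.8%, below the lowest control in each. ANT008 replicates 2 and 3 were far lower than ANT008 replicates 1 and 4. In these both, templates with 3 trimmed nucleotides made up 23.4% and 21% against 7.58% to 11.6% in control. The large Trbv1/Trbj2-2 clone of ANT008 replicate 2, printed above with 3 V nucleotides lost, is part of that class.

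**Figure D4:**
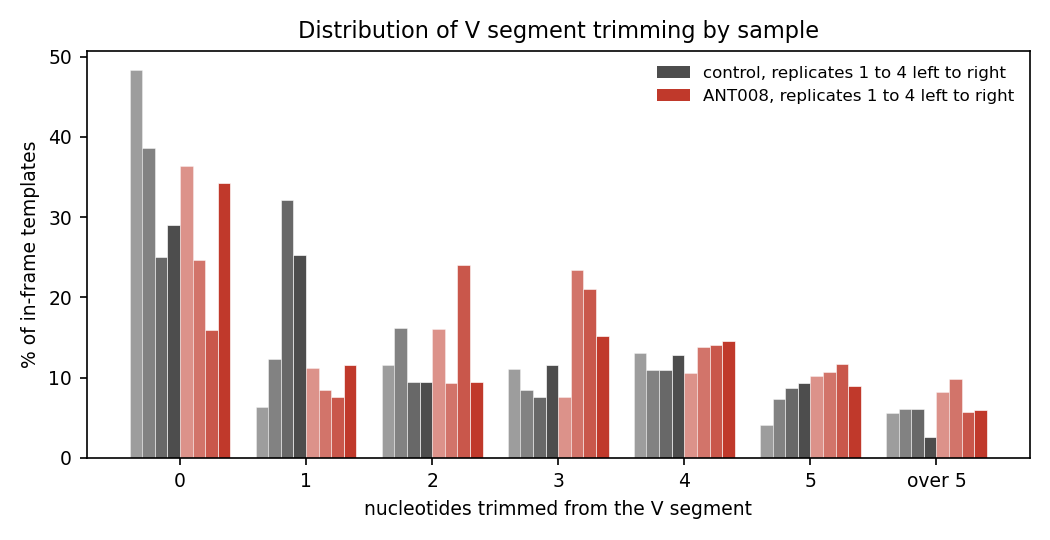
Percent of in-frame templates by the number of nucleotides trimmed from the V segment, from 0 to over 5, with 1 bar for each of the 4 control and 4 ANT008 samples. Control bars lead at 0 and 1 combined, 50.9% to 57.1% against 23.5% to 47.5% in ANT008.

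The difference was smaller without large clones. In clones above 1% of their sample the mean was 1.05, 1.15, 0.762 and 1.36 V nucleotides in control replicates 1 to 4. It was 1.3, 2.87, 2.85 and 1.44 in ANT008 replicates 1 to 4, and ANT008 replicate 1 lay within the control range. Of these large clones, 26 of 48 had lost at most 1 V nucleotide in control and 20 of 41 in ANT008. By templates, such clones averaged 75.8% ± 16.5 (SD) of the large-clone templates of a sample in control and 36.6% ± 29.8 in ANT008. Over the smaller clones the means were 2.39 to 2.56 in control and 2.62 to 2.67 in ANT008, again without overlap, but the difference was 0.15 nucleotides (SE 0.09, exact p = 0.272). The SDs were 0.0777 in control and 0.0235 in ANT008. The shared SE also covers combination replicate 3, which stood at 3.01. With each rearrangement counted once the control range was 2.55 to 2.68 and the ANT008 range 2.63 to 2.70, a difference of 0.0311 (SE 0.0312, exact p = 0.647). From V gene shares alone, with each V gene given its mean trimming over all rearrangements of the 16 samples, the expected means were 2.5 to 2.77 in control and 2.63 to 2.86 in ANT008, which overlap. In the anti-PD-1 groups, V trimming averaged 2.85 with anti-PD-1 alone and 2.52 in the combination group. Over the smaller clones these averages were 2.66 and 2.70, and with each rearrangement counted once they were 2.66 and 2.64. The difference of effects is given over all templates only. Over all templates, the ANT008 effect with anti-PD-1 minus the effect without it was -0.871 nucleotides (exact permutation p = 0.000826, adjusted p = 0.00826). That permutation moved the 16 samples freely among all 4 groups, so its p is exact only if no group differed at all. It does not test the difference of effects apart from other differences between groups.

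The other junction measures overlapped between groups and did not pass. N1 insertions, between V and D, averaged 1.68 ± 0.174 nucleotides in control and 1.63 ± 0.224 in ANT008 samples. N2 insertions, between D and J, averaged 1.5 ± 0.246 and 1.68 ± 0.147. All inserted nucleotides averaged 3.17 ± 0.313 and 3.31 ± 0.226, and templates with no inserted nucleotide, a common form in rearrangements made around birth when terminal transferase is scarce, made up 6.58% ± 2.22 and 7.56% ± 1.35. Trimming at the D segment averaged 2.84 and 2.61 nucleotides at its 5′ end, and 3.25 and 3.17 at its 3′ end. The J segment lost 3.09 ± 0.571 and 3.16 ± 0.271. Among templates with a named D gene, Trbd1 made up 52.1% ± 7.58 of control and 60.1% ± 5.21 of ANT008. The exact adjusted p was 0.99 for each of these, as for mean CDR3 length, 41.9 ± 1.14 and 41.6 ± 0.24 nucleotides.

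No clone-size class passed the test. Clones above 1% held 53.4%, 38.8%, 27.7% and 49.8% of control templates and 37.6%, 23.9%, 40% and 34.6% of ANT008 templates, a difference of -8.4 percentage points (SE 7.22, exact p = 0.528). There were 15, 12, 8 and 13 such clones in control and 15, 7, 7 and 12 in ANT008. The largest clone held 12.8% ± 5.21 in control and 8.5% ± 3.81 in ANT008. Clones of 0.1 to 1% held 22.3% ± 3.18 and 22.7% ± 3.52, and those up to 0.01% held 20% ± 8.37 and 23.2% ± 9.16. Those of 0.01 to 0.1% held 15.3% ± 4.03 and 20.1% ± 2.6, a difference of 4.78 points (SE 6.70, exact p = 0.967). This difference was larger than either SD. The shared SE also covers anti-PD-1 replicate 4, which held 51.9% in this class. Class limits depend on depth, and that sample, with 7180 in-frame templates, held 0% in clones up to 0.01%. Single-template clones held 13.9% ± 5.55 and 17.2% ± 5.47.

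Clones above 0.1% numbered 79, 83, 87 and 93 in control and 103, 87, 88 and 118 in ANT008. The fewest clones that together held 50% of templates numbered 13, 29, 90 and 14 in control and 37, 198, 26 and 44 in ANT008. ANT008 replicate 2 needed the most, and control replicates 1 and 4 the fewest. On the log2 scale the latter differed by 1.04 (SE 1.00, exact p = 0.606). None of the 9 clone-size measures passed, with exact adjusted p of 0.997 for each.

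**Figure D5:**
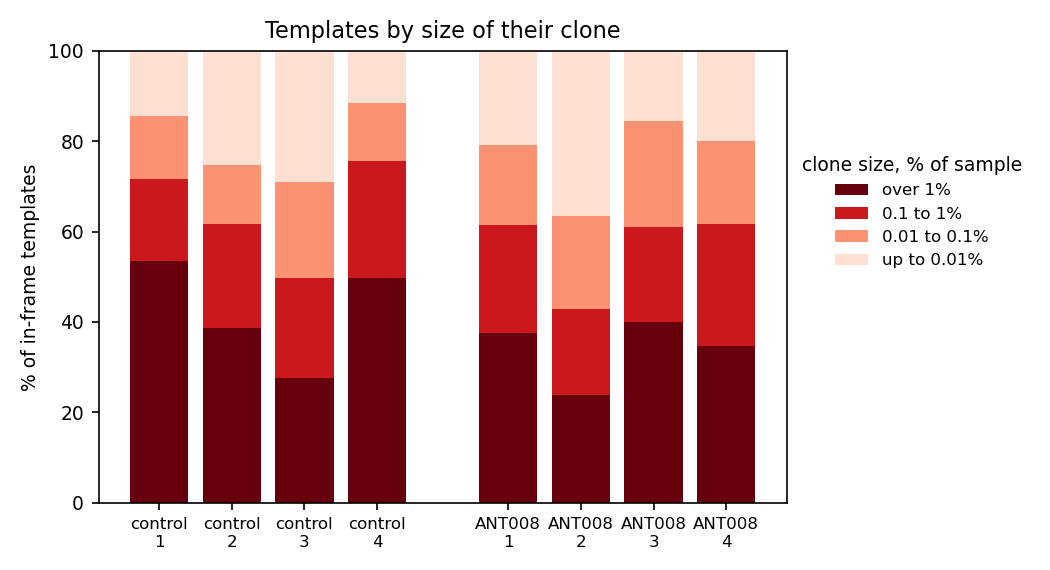
Percent of in-frame templates in clones of 4 size classes in the 4 control and 4 ANT008 samples, each bar adding to the whole sample. The darkest part, clones above 1%, spans 27.7% to 53.4% in control and 23.9% to 40% in ANT008, and the ranges overlap.

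Sharing of clones between mice was low in both groups. The Morisita-Horn index of CDR3 residues, which is 0 for repertoires with nothing in common, averaged 0.0192 over the 6 pairs of control mice and 0.0183 over the 6 pairs of ANT008 mice. Over the 16 pairs of a control and an ANT008 mouse it averaged 0.0429. The highest values, 0.225 and 0.152, were for control replicate 1 with ANT008 replicates 1 and 4. Templates whose CDR3 was found in at least 8 other samples made up 9.12% ± 3.7 in control and 8.82% ± 4.21 in ANT008 (difference -0.302, SE 2.89). Each CDR3 was encoded by 1.11 ± 0.0254 and 1.10 ± 0.0106 rearrangements on average. The exact adjusted p was 0.998 for both measures.

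Some receptors with the same V gene and CDR3 length were large in mice of both groups. These are the clones above 1% that used Trbv14 with a CDR3 of 36 nucleotides, chosen after their values were seen and described with no test.
control replicate 1, Trbv14/Trbj2-7: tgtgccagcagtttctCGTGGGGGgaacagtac
control replicate 4, Trbv14/Trbj2-7: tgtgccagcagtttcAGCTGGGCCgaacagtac
ANT008 replicate 1, Trbv14/Trbj2-7: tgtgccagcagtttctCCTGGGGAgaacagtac
ANT008 replicate 1, Trbv14/Trbj2-1: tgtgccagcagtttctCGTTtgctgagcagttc
ANT008 replicate 4, Trbv14/Trbj2-1: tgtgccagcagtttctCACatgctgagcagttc

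The 5 clones made up, in that order, 14.3%, 8.19%, 2.81%, 4% and 5.62% of their samples. The first and the third clone, from a control and an ANT008 mouse, differed at 2 of the 33 bases shown and encoded the same 12 residues. Counted by residues, that CDR3 made up 14.5% of control replicate 1 and 2.84% of ANT008 replicate 1, 0.0603% and 0.00243% of control replicates 3 and 2, and was not found in control replicate 4 or the 3 other ANT008 samples. Any pair of the 5 shared 9 to 12 of 12 residues. The clones were chosen for the same V gene and CDR3 length, which fixes many of these residues. Other Trbv14 clones of this length were not compared. The Trbv14 gene as a whole had a fitted log2 fold change of -0.39 ± 0.66 (SE), with an edgeR adjusted p of 0.88.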

How the data were processed

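Per the labels T cells were isolated from tumor suspensions with magnetic CD90.2 selection, a step that the study's text on receptor sequencing does not state. TCR-β sequencing was performed by Adaptive Biotechnologies. Per the labels RNA was extracted, whereas the study's text also names DNA, so a template may be a transcript or a gene copy. The aligner and its reference are not given in the sources used here. The deposited values, 1 entry per rearrangement, held template counts (whole numbers, not normalized) and, per the file headers, the fraction of productive templates, with CDR3 length, trimming and insertion lengths in nucleotides. The deposited fraction equalled templates over in-frame templates. Columns for reads were empty.

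In-frame entries were kept. Service names of V and J genes were rewritten as RefSeq symbols (GRCm38.p6), and all 33 V and 14 J names matched. Templates per V gene, J gene, V-J pair and CDR3 length were tested with edgeR 4.0.16 (quasi-likelihood, R 4.3.3), all 16 samples in 1 fit, library size fixed at in-frame templates, with Benjamini-Hochberg adjustment and a threshold of 0.05. Features needed 10 templates over the samples, and pairs 10 templates in at least 4 samples. The shared fit assumes that all groups vary alike. Junction, clone-size and sharing measures were tested by Dunnett's comparison over 16 samples, run as an exact two-sided permutation and adjusted within each family. Software was Python 3.11.15, scipy 1.17.1 and numba 0.67.0 for tests, pandas 2.3.3 and numpy 2.4.6 for tables and matplotlib 3.10.9 for plots. The scripts were checked on simulated data.

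Named were the V genes past the threshold and the 8 with the smallest p, 4 such J genes, 6 such pairs, the commonest length, the largest clone of each sample and the Trbv24 clones holding at least 50% of that gene or pair in a sample. Members and lists were chosen with earlier results of these data known. Alternatives were DESeq2 1.42.0, TMM, no filter, the 8 samples alone, the replicate number as a block and each sample left out. Others were unique rearrangements, no clones above 1%, 7180 templates per sample, and out-of-frame rearrangements for V and J genes. For measures the alternatives were also a permutation test of the 8 samples alone, medians and other clone definitions. Draws to 7180 templates were averaged over 20 for measures, whereas edgeR used a single draw. The robust dispersion of edgeR was added after the data were seen.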

Additional observations from a re-analysis of the deposited data

Results flagged for a closer look

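The scan covered 84 sets of 4 values, each a measure or named feature in control or in ANT008. Of these, 9 held a sample whose gap to the nearest other exceeded Dixon's 95% limit. The named features were mostly chosen by p in these data, and many sets share templates. The limit's rate of 1 in 20 therefore does not apply to this count. Trbv1 took up 22.5% of control replicate 2 against 3.23% to 5.48% in the other controls, and 12.5% of ANT008 replicate 2 against 1.96% to 2.6%. Trbv13-1 took up 16.6% of ANT008 replicate 3 against 4.13% to 5.88%, and Trbj1-2 took up 17.6% of control replicate 4 against 3.53% to 4.11%. Each of these samples held its largest clone in that gene. Trbv24/Trbj2-5 took up 7.57% of ANT008 replicate 3 against 0.0617% to 0.282%, and Trbv24/Trbj2-3 took up 5.08% of ANT008 replicate 4 against 0.0441% to 0.203%. The pseudogene Trbv27 was at 0.00268% in control replicate 4 and at 0 in the other controls. Clones of 0.01 to 0.1% held 21.3% of control replicate 3 against 12.8% to 14% in the other controls, and control replicate 4 had 1.15 rearrangements per CDR3 against 1.09 to 1.10.

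The estimated effect of ANT008 over all templates differed between mice without and with anti-PD-1 for Trbv24 and for V trimming. It did not differ past the threshold for either called V-J pair (edgeR adjusted p = 0.163 and 0.242). For Trbv24 the log2 difference of effects was -3.96 (edgeR adjusted p = 0.0161). For V trimming the difference was -0.871 nucleotides (exact permutation, adjusted p = 0.00826), and that p is exact only if no group differed at all. In both, over all templates, the ANT008 mean lay above the control mean and the combination mean below that of anti-PD-1 alone. Over clones up to 1%, mean V trimming was 2.66 with anti-PD-1 alone and 2.70 in the combination group. For Trbv24 single samples of ANT008 and control overlapped, ANT008 replicate 1 lying below control replicates 1 and 3. Among anti-PD-1 samples, replicate 3 held 6.1% and the others 0.677% to 0.905%, against 0.707% to 1.16% in the combination group.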

How the results depend on the processing

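The number of V genes called, 1 as reported, was 0 with TMM scaling, the replicate block, unique rearrangements, out-of-frame rearrangements or no clones above 1%, and 0 to 2 with a sample left out. Without ANT008 replicate 2, Trbv1 was also called. The 2 V-J pairs became 0 with the 8 samples alone, TMM scaling, equal depth (where neither pair was tested), the replicate block, robust dispersion, unique rearrangements or no clones above 1%, 15 with DESeq2 (none of them shared), and 0 to 3 with a sample left out. The CDR3 lengths called rose from 0 to 1 without clones above 1%. The 1 junction measure called became 0 with the permutation test of the 8 samples alone, the replicate block, unique rearrangements or no clones above 1%. It was 0 to 1 with a sample left out. The permutation test of the 8 samples and the block allow no p below 0.0286 and 0.125. After adjustment over the family, a lone measure could not keep its call in either. The V trimming difference was 0.542 with the test of the 8 samples alone and the block, 0.031 with unique rearrangements, 0.150 without clones above 1%, and 0.452 to 0.641 with a sample left out. The cause was not tested.

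The direction reversed in these uncalled results. With out-of-frame rearrangements the log2 change was -0.68 for Trbv13-1, 0.34 for Trbv21 and -0.15 for Trbj2-5. With unique rearrangements it was -0.22 for Trbv13-1 and 0.0044 for Trbj1-2, and the difference was -0.0403 for N2 and -0.121 for all insertions. Without clones above 1% it was -0.25 for Trbv13-1, 0.10 for Trbj2-7 and 0.061 for 42 nucleotides, with -0.0401 for N2, -0.106 for all insertions and 0.0464 for D 5′ trimming. Medians gave 0.25 for D 5′ trimming and 0.75 for CDR3 length, and equal depth 0.000275 for rearrangements per CDR3. With a sample left out the ranges were -1.98 to 0.070 for Trbv1, -0.074 to 0.83 for Trbv13-1, -1.12 to 0.036 for Trbj1-2, -0.12 to 0.093 for 42 nucleotides, -0.142 to 0.0353 for N1, -0.857 to 0.00723 for CDR3 length, -0.187 to 0.226 for J trimming and -0.19 to 0.023 for D 3′ trimming. They were -1.61 to 1.35 for CDR3s in 8 or more other samples, -0.977 to 1.74 for clones of 0.1 to 1% and -1.28 to 6.13 for clones up to 0.01%.

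The median log2 change moved from 0.10 to -0.10 for V genes, 0.03 to -0.34 for J genes, 0.35 to 0.01 for V-J pairs and 0.20 to 0.006 for lengths under TMM. Under DESeq2 it was -0.09, -0.22, 0.03 and -0.28. Same-numbered ANT008 and control samples correlated in their V gene deviations at -0.0710 to 0.460, so the numbers were not taken to pair the mice. With the replicate block Trbv24 was 2.36 (edgeR adjusted p = 0.0575), and the exact p for V trimming was 0.125, the smallest that 4 pairs allow. Beside V trimming, which lost its call in the 4 settings above, the values of named features and other measures with all samples kept numbered 251 with the same direction and call, 17 that lost a call, 5 that gained one and the 16 reversals above. ANT008 replicate 3, with 11537 templates, had the least depth.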
